A study of Mus musculus with 8 samples.

Results

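The centromere, kinetochore and spindle checkpoint genes were examined in RNA-seq of 100 sorted murine hematopoietic stem cells (HSCs) per library. The gene module held every symbol made of Cenp and 1 letter from a to x, and 28 further kinetochore, checkpoint, passenger and cohesion-protection genes given by name, in all 48 genes (20 with a Cenp symbol and 28 named) of 22065 named genes in the count table. The rule used symbols and no measured value. Cenpc is listed as Cenpc1 and CENP-R as Itgb3bp, so neither was matched, and their values are given with the genes outside the rule.

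Both groups were C57BL/6 mice aged 8 to 10 weeks that carried Mitol Flox/Flox alleles and had received Poly:IC, and HSCs were taken from bone marrow 1 week later. The 4 MitolΔ/Δ libraries came from mice that also carried MX1-cre, and the 4 control libraries from MX1-cre-negative mice. MITOL, encoded by Marchf5, is a ubiquitin ligase of the mitochondrial outer membrane. MX1-cre is switched on by the interferon response that Poly:IC evokes, so recombination is not limited to HSCs, and control mice had Poly:IC without the recombinase. Nothing in the labels ties a library to its own mouse, and p-values therefore measure the spread between these libraries, part of which may be technical.

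The kinetochore is the protein assembly that joins a chromosome to spindle microtubules. It is built on nucleosomes that hold the histone variant CENP-A, through a constitutive centromere-associated network (CCAN) and then the microtubule-binding network of the Knl1, Mis12 and Ndc80 complexes, while the spindle checkpoint holds anaphase until every kinetochore is attached. Many of these mRNAs accumulate toward mitosis, and HSCs are mostly quiescent in the adult marrow.

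Libraries held 7214935 to 12398138 counts in named genes. Total Marchf5 counts did not separate the groups, with 276, 232, 308 and 281 normalised counts in the MitolΔ/Δ libraries and 299, 312, 333 and 262 in the controls (log2 fold change -0.15 ± 0.13 SE, edgeR adjusted p = 0.498). Counts over a whole gene do not show reads of the deleted exons apart from the rest, so the deletion was not read here. Of 11 HSC and gate markers, 3 fell, 1 rose and 7 were not past the threshold, and 4 had a log2 fold change above 0. Kit and Hlf were abundant in every library and among those that fell. The marker that rose was Cd48, which the sort selects against, at a mean of 39.6 against 11.8 normalised counts. Of the positive markers in the paper's gate for long-term HSCs, Kit (c-Kit) fell (log2 fold change -0.75, edgeR adjusted p = 0.00705). For Kit all 4 MitolΔ/Δ libraries lay below all 4 controls. Procr (EPCR) and Slamf1 (CD150) were not past the threshold (log2 fold changes -0.34 and 0.56, edgeR adjusted p = 0.179 and 0.0501). For Slamf1 all 4 MitolΔ/Δ libraries lay above all 4 controls. Erythroid markers differed between libraries. Gata1, a red-cell and megakaryocyte transcription factor, had 114, 131, 297 and 305 normalised counts in the MitolΔ/Δ libraries and 6.29 to 31.9 in the controls, and of 10 erythroid markers 6 could be tested and 3 were higher. Their summed level was 1653 to 4931 in MitolΔ/Δ and 880.5 to 1324 in control libraries. Markers of neutrophils and monocytes, B-lineage cells, T cells, mast cells and macrophages summed to at most 133, 204.6, 6.59, 21.1 and 259.7 normalised counts in any library. Of 4 megakaryocyte markers tested, 1 (Pf4) was lower and 0 were higher in MitolΔ/Δ HSCs. Itga2b, not past the threshold, had 286, 351, 1111 and 1440 normalised counts in MitolΔ/Δ libraries and 519 to 589 in controls, and like Gata1 was highest in MitolΔ/Δ replicates 3 and 4.

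The promoter sequences of the module are shown first, as a description. Whether any element in them bears on the differences between groups was not tested. The cell cycle genes homology region (CHR) is a promoter element of genes expressed late in the cell cycle, bound by MuvB complexes. CHR was searched as TTTGAA or TTCGAA, the CCAAT box as CCAAT and an E2F core as TTCGCGC or TTGGCGC, on both strands, from 250 bases before to 50 bases after each RefSeq start on GRCm38.p6. Of the 48 members, 43 were in the RefSeq promoter table, with 49 promoters, and Spc24, Nsl1, Ska1, Zwilch and Incenp were not. The stretches below, located by exact match on GRCm39, are of at most 30 bases and run 5′ to 3′ on the gene's strand, with the CHR match in capitals (TTCAAA is the same element on the other strand). All belong to members that were higher in MitolΔ/Δ HSCs, since stretches were picked from these alone. Members not past the threshold also held matches near the start, among them Spdl1, Cenpn and Cenpw. Cenpf lies at chr1:189420264-189420293 (minus strand), Bub1 at chr2:127673748-127673777 (minus), Ttk at chr9:83716737-83716766 (plus) and Cenpa at chr5:30824234-30824263 (plus), each with the element within 16 bases after the start. Cenpm lies at chr15:82128603-82128632 (minus), Ska3 at chr14:58063621-58063646 (minus) and Kntc1 at chr5:123887769-123887788 (plus), with the element before the start. Each stretch overlaps a non-coding part of an annotated exon.

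Cenpf: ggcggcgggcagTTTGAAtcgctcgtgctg
Bub1: ctgcgcggggaaTTCGAAtcgccggcggcc
Ttk: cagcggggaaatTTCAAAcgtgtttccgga
Cenpa: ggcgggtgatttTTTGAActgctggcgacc
Cenpm: tgggcgttccagTTCGAAcgtggctttccc
Ska3: gcctgcgcaggaTTCAAAtgtgtagc
Kntc1: ttctcccgccaaTTCAAAtc

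Matches to the CHR were present in 21 of 49 member promoters (42.9%) and in 6316 of 32851 promoters of all genes (19.2%). A CCAAT box was present in 32 of 49 member promoters (65.3%) against 37.4% of all promoters. Among promoters of members that were higher in MitolΔ/Δ HSCs, 12 of 22 held a CHR match and 18 of 22 a CCAAT box, against 9 of 27 and 14 of 27 for the other members. In the 150 bases before the start alone, CHR matches were in 4 of 22 and 4 of 27 and CCAAT boxes in 10 of 22 and 13 of 27, so the difference between these sets lay in the rest of the window for both. The E2F core was in 3 member promoters (6.12%) against 3.89% of all promoters, in 0 of 22 for the higher members and 3 of 27 for the others. In the Kntc1 stretch the CCAAT box and the CHR match overlap by 1 base. These are matches of letters, given with no test, and binding was not measured.

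To ask whether the module differed between MitolΔ/Δ and control HSCs, all 16444 genes that passed the expression filter were fitted together with edgeR. Every one of the 48 members passed the filter. At an adjusted p under 0.05, 24 members rose in MitolΔ/Δ HSCs and 0 fell, with 37 at an unadjusted p under 0.05; 4.68% of all tested genes rose and 3.75% fell, 8.43% in all. DESeq2 called 29 members higher, among them all 24, and 0 lower, where it called 8.19% of all tested genes higher. The log2 fold change was above 0 in 46 of 48 members, against 47.7% of all tested genes, and its median was 0.84 over the members (range -0.22 to 1.79) and -0.02 over all tested genes. All 4 MitolΔ/Δ libraries lay above all 4 control libraries for 17 members, against 8.17% of all tested genes, and these were 16 of the 24 higher members and Cenpw. The reverse held for 0 members and 7.18% of all tested genes. Counts of called members moved with single libraries. Without MitolΔ/Δ replicates 1, 2 and 3 in turn, 10, 10 and 13 members rose, where 1.84%, 1.43% and 1.85% of all tested genes did. Without control replicates 2 and 4 in turn, 5 and 9 members rose, where 0.995% and 1.6% of all tested genes did. Of the 24 higher members, 11 were called in at least 4 of the 8 fits that left out a library. Nsl1 and Kntc1 were called in 1 of these fits, Knl1, Cdca8, Ska3 and Sgo1 in 2, and Spc24, Ska1 and Pmf1 in 3. With limma-voom Spc24, Kntc1 and Nsl1 were among the members that lost the call (adjusted p = 0.0717, 0.0687 and 0.0652). In 100 sorted cells per library, more cells in cycle and more RNA per cell cannot be told apart.

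**Figure D1:**
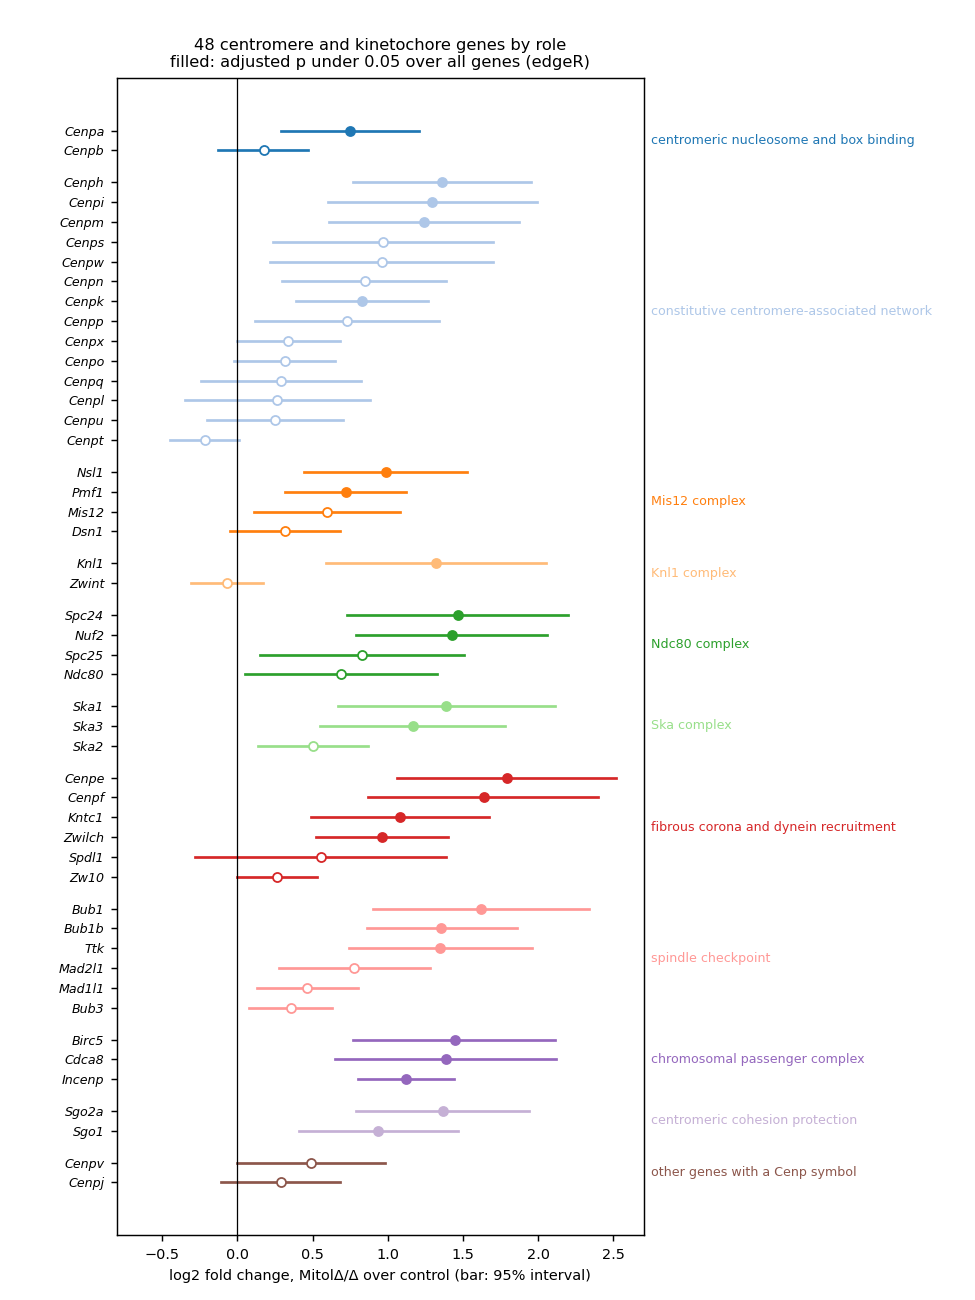
Log2 fold change of each of the 48 genes in MitolΔ/Δ over control HSCs (horizontal axis, edgeR) with its 95% interval as a bar, grouped and coloured by role, with filled points for an adjusted p under 0.05. The 24 filled points all lie above 0, Cenpe is highest at 1.79, and Zwint and Cenpt are the genes with a value below 0.

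Among the centromere-building genes, the histone Cenpa was just past the threshold and the CCAN was uneven. Cenpa had 1537, 1292, 1645 and 1456 normalised counts in MitolΔ/Δ libraries and 725, 646, 1407 and 706 in controls (log2 fold change 0.75 ± 0.21 SE, adjusted p = 0.0479). Its call was lost with upper-quartile scaling (adjusted p = 0.061) and held in 2 of 8 fits that left out a library. The groups overlapped, since control replicate 3 was above MitolΔ/Δ replicate 2, and the other controls were all below 750 (named for its role after its values were seen). Cenpb, which binds the CENP-B box of centromeric satellite DNA, had 1009, 1188, 1045 and 890 against 1188, 782, 839 and 813 (0.17 ± 0.14, adjusted p = 0.455). In GENCODE vM39 all annotated exon bases of Cenpb are shared with Spef1 on the same strand. The annotation used for counting is not given, so how reads of this stretch were assigned is not known.

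Of 14 CCAN members 4 rose, with a median log2 fold change of 0.78. The 4 were Cenph, Cenpi, Cenpk and Cenpm, which encode the 4 subunits of the CENP-H/I/K/M subcomplex, a bridge between CENP-C and CENP-T; this split was made after the values were seen and depends on the test. With limma-voom Cenpi and Cenpm were not called (adjusted p = 0.0616 and 0.0515), DESeq2 also called Cenpn and Cenps (adjusted p = 0.0133 and 0.0379), and with a library left out Cenpi, Cenpm and Cenpk were called in 2, 3 and 2 of 8 fits. Cenph had 153, 129, 112 and 61.4 normalised counts in MitolΔ/Δ and 47.5, 46.8, 44.3 and 36.8 in control libraries, so that the groups did not overlap and the controls spanned a narrow range (1.36 ± 0.27, adjusted p = 0.0158). Cenpi, Cenpm and Cenpk had log2 fold changes of 1.30, 1.24 and 0.83 (adjusted p = 0.0308, 0.0261 and 0.0305). The other 10 ranged from -0.22 to 0.97 and did not pass the threshold, Cenps being the highest of them (adjusted p = 0.0909).

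Several CCAN genes lay near 0. Cenpt, whose product binds DNA with a histone fold and recruits the Ndc80 complex, had 585, 517, 471 and 525 normalised counts against 595, 683, 559 and 571 (-0.22 ± 0.11, 95% interval -0.45 to 0.01, adjusted p = 0.218). Cenpu had 164, 126, 106 and 94.2 against 113, 105, 81.0 and 108 (0.25 ± 0.21, adjusted p = 0.478). Cenpl had 223, 207, 202 and 129 against 77.8, 129, 211 and 204 (0.26 ± 0.28, adjusted p = 0.591). In all 3 the groups overlapped, and the Cenpl interval, -0.35 to 0.88, was wide, with control replicate 1 far below controls 3 and 4. The genes outside the rule that complete the network had log2 fold changes of 0.17 (Cenpc1, adjusted p = 0.549) and 0.10 (Itgb3bp, adjusted p = 0.867).

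The outer kinetochore genes rose in part. Of the 4 Ndc80 complex genes, which form the main microtubule coupler, Spc24 and Nuf2 rose. Spc24 had 661, 646, 378 and 165 normalised counts in MitolΔ/Δ libraries and 145, 182, 194 and 140 in controls (1.46 ± 0.34, adjusted p = 0.0247). Nuf2 had 281, 295, 181 and 141 against 46.2, 70.2, 112 and 97.9 (1.43 ± 0.29, adjusted p = 0.0173). MitolΔ/Δ replicate 4 fell among the controls for Spc24, whereas the Nuf2 groups were apart. Ndc80 and Spc25 had log2 fold changes of 0.69 (95% interval 0.05 to 1.33) and 0.83 (0.15 to 1.51) and did not pass the threshold, and 52.5% of the annotated exon bases of Spc25 are shared with another gene.

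In the Mis12 complex, which links the inner and outer kinetochore, Nsl1 and Pmf1 rose (log2 fold changes 0.98 and 0.72, adjusted p = 0.0347 and 0.0354), and Mis12 (0.60) and Dsn1 (0.31) did not pass. In the Knl1 complex, the scaffold on which checkpoint proteins dock, Knl1 rose (1.32, adjusted p = 0.0346). Its partner Zwint had 521, 524, 495 and 428 normalised counts against 531, 552, 518 and 439 (-0.07 ± 0.11, 95% interval -0.31 to 0.17, adjusted p = 0.740), the member nearest 0, with overlapping groups; its value was above 0 (0.01) without MitolΔ/Δ replicate 4. In the Ska complex, which keeps the attachment on shortening microtubules, Ska1 had 77.5, 48.8, 64.1 and 45.5 against 19.8, 24.5, 32.0 and 12.6 (1.39 ± 0.33, adjusted p = 0.0272) with groups apart. Ska3 also rose (1.17, adjusted p = 0.0300) and Ska2 did not pass (0.51, adjusted p = 0.0771); 51.8% of the annotated exon bases of Ska3 are shared with genes on the opposite strand.

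The fibrous corona, the outermost layer that captures microtubules, held the members with the largest log2 fold changes, Cenpe and Cenpf. Its median log2 fold change, with the dynein-recruiting genes, was 1.02, below that of the chromosomal passenger genes (1.39). Cenpe, a kinesin that moves chromosomes to the spindle equator, had 531, 381, 495 and 220 normalised counts in MitolΔ/Δ libraries and 100, 56.4, 193 and 112 in controls (1.79 ± 0.34, adjusted p = 0.0127). Cenpf, a large corona protein that binds microtubules and dynein regulators, had 916, 744, 833 and 508 against 127, 107, 402 and 307 (1.64 ± 0.35, adjusted p = 0.0199). Neither gene overlapped between groups, and for both the groups came nearest between MitolΔ/Δ replicate 4 and control replicate 3. Of the genes that recruit dynein, Kntc1 and Zwilch rose (1.08 and 0.96, adjusted p = 0.0324 and 0.0183). Zw10, the other subunit of that complex, had 364, 391, 388 and 329 against 299, 281, 352 and 277 (0.27 ± 0.12, adjusted p = 0.189), and the dynein adaptor Spdl1 did not pass (0.55, 95% interval -0.28 to 1.39).

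Of 6 spindle checkpoint genes, 3 rose and 3 did not pass the threshold. Bub1, a kinase that marks the centromere and recruits other checkpoint proteins, had 411, 458, 297 and 234 normalised counts in MitolΔ/Δ and 69.9, 78.7, 212 and 84.4 in control libraries (1.62 ± 0.33, adjusted p = 0.0171). Bub1b, encoding BubR1 of the mitotic checkpoint complex, had 1335, 1186, 1017 and 683 against 282, 316, 550 and 472 (1.36 ± 0.23, adjusted p = 0.00844). Ttk, the Mps1 kinase that starts the signal, had 297, 246, 151 and 177 against 54.1, 60.7, 105 and 115 (1.35 ± 0.28, adjusted p = 0.0177). All 3 had groups apart, with control replicate 3 standing far above the other controls for Bub1.

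Mad2l1, the inhibitor of Cdc20, had 432, 358, 339 and 180 normalised counts against 173, 166, 239 and 176 (0.78 ± 0.23, adjusted p = 0.0565). Mad1l1, its kinetochore anchor, had 597, 698, 534 and 461 against 526, 375, 396 and 347 (0.46 ± 0.16, adjusted p = 0.0814). Bub3, the binding partner of Bub1 and BubR1, had 884, 992, 820 and 701 against 637, 562, 776 and 647 (0.35 ± 0.13, adjusted p = 0.101). The intervals of these 3 genes lay above 0 and their groups overlapped at 1 or more libraries; DESeq2 called Mad2l1 and Mad1l1 (adjusted p = 0.0129 and 0.0377) and not Bub3 (0.0574).

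**Figure D2:**
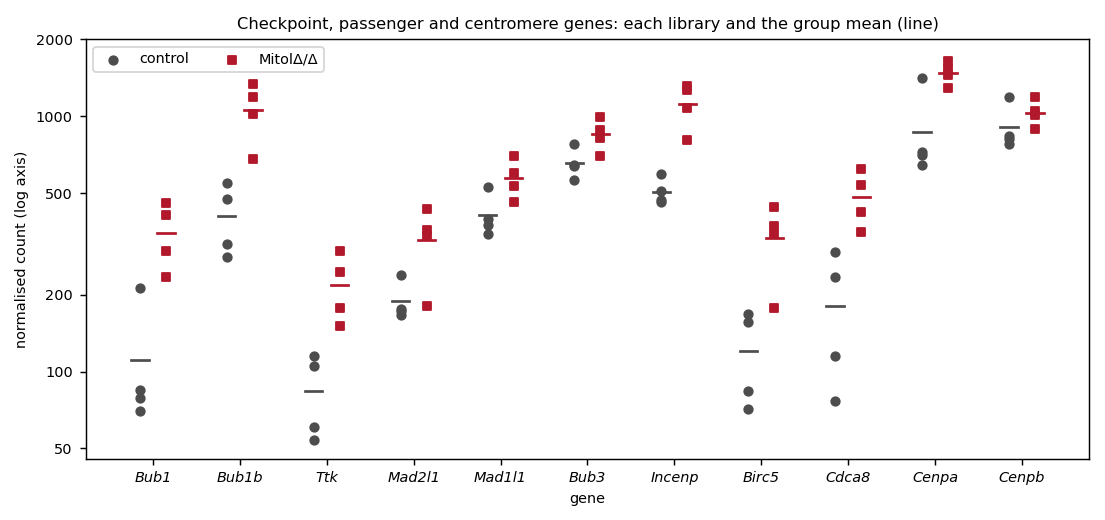
Normalised counts (log axis) of the checkpoint, passenger and centromere genes in each control (circles) and MitolΔ/Δ (squares) library, with lines at the group means. Bub1b runs from 282 to 550 in controls and from 683 to 1335 in MitolΔ/Δ libraries, while Cenpb runs from 782 to 1188 in controls and from 890 to 1188 in MitolΔ/Δ libraries.

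Unequal change between partners was read from ratios within a library, which do not depend on scaling. The log2 ratio of Bub1b to Bub3 was 0.60, 0.26, 0.31 and -0.04 in MitolΔ/Δ and -1.17, -0.83, -0.50 and -0.45 in control libraries, a difference of 1.02 in means of 0.28 ± 0.26 and -0.74 ± 0.34 (SD, n = 4 each; 2-sided exact permutation test, p = 0.0286, 0.0857 adjusted over 3 ratios). Groups did not overlap, 0.0286 is the smallest p that 4 against 4 allows, and the adjusted value misses 0.05. The ratios of Cenpa to Cenpb and of Mad2l1 to Mad1l1 differed by 0.63 and 0.26 (exact permutation test, p = 0.143 and 0.343, 0.214 and 0.343 adjusted), within the spread of libraries.

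The chromosomal passenger genes, which encode the scaffold and targeting subunits of the Aurora B kinase, all rose, as did both shugoshins, which protect centromeric cohesin. Incenp had 1272, 1309, 1077 and 804 normalised counts in MitolΔ/Δ and 508, 461, 592 and 468 in control libraries (1.12 ± 0.15, adjusted p = 0.00381), the lowest adjusted p of the module. Birc5 (Survivin) had 371, 440, 346 and 178 against 71.2, 84.1, 168 and 156 (1.44 ± 0.31, adjusted p = 0.0194). Cdca8 (Borealin) had 536, 620, 423 and 352 against 115, 76.6, 295 and 235 (1.39 ± 0.34, adjusted p = 0.0299). The groups were apart for all 3, narrowly for Birc5. Sgo2a had 146, 127, 123 and 112 against 29.0, 35.1, 64.1 and 63.8 (1.36 ± 0.26, adjusted p = 0.0147), and Sgo1 rose less (0.94, adjusted p = 0.0357). Cenpe, Sgo2a, Cenph, Bub1b and Incenp were the 5 members past the threshold in each of the 8 fits that left out a library. The genes with a Cenp symbol but no kinetochore role placed here, Cenpj and Cenpv, did not pass (0.29 and 0.49).

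**Figure D3:**
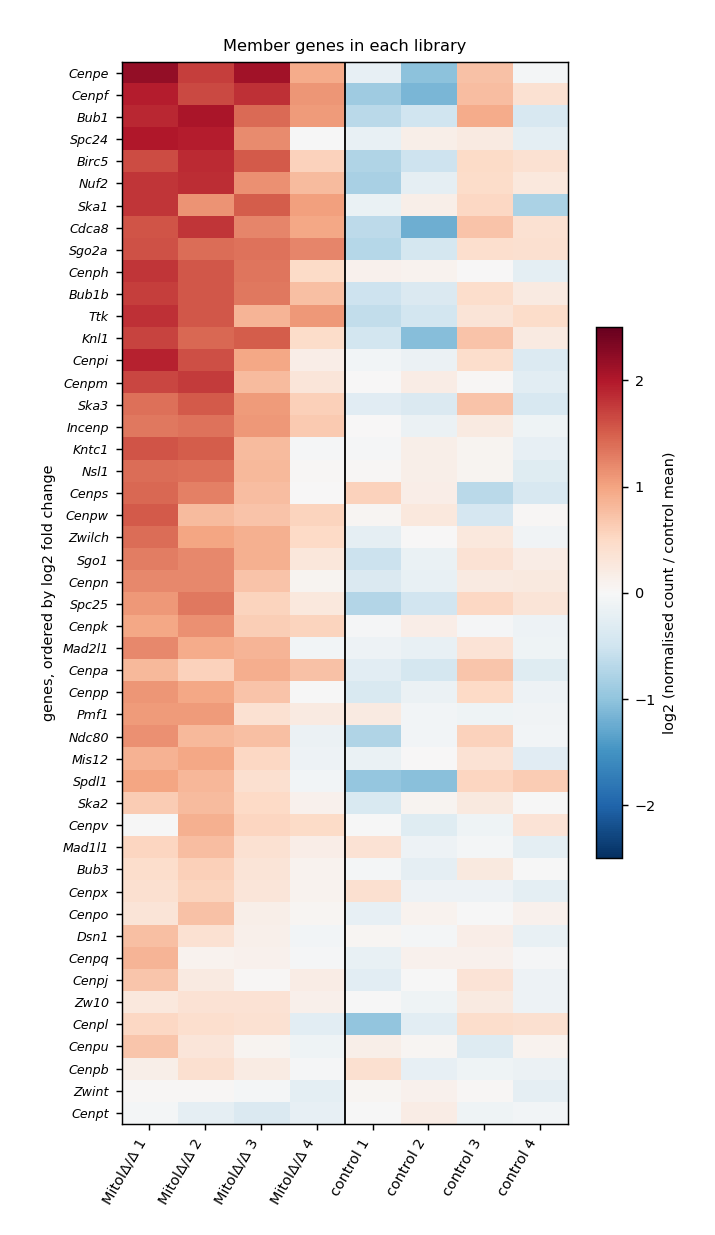
Log2 of the normalised count over the control mean (colour) for the 48 genes, ordered by log2 fold change from Cenpe to Cenpt, in each MitolΔ/Δ and control library. MitolΔ/Δ replicates 1 and 2 are the most strongly coloured, replicate 4 is paler than the other MitolΔ/Δ libraries, and control replicate 3 is the reddest control column among the upper genes.

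The module differed between libraries of the same group. MitolΔ/Δ replicate 4 was the lowest MitolΔ/Δ library for 43 of 48 members, against 32.8% of 12013 genes with at least 50 mean normalised counts, and replicates 1 and 2 were the highest for 27 and 20. Control replicate 3 was the highest control for 28 of 48 members, against 23.8% of those genes. The members' summed CPM was 2231, 2158, 1831 and 1353 in MitolΔ/Δ replicates 1 to 4. In controls 1 to 4 this sum was 1068, 1048, 1371 and 1174, so on the CPM scale MitolΔ/Δ replicate 4 lay below control replicate 3. As normalised counts the members summed to 13180 to 21650 in MitolΔ/Δ and to 9628 to 12790 in control libraries, without overlap. Whether the groups overlap in the summed level thus depends on the scaling. The median log2 difference of members from the control mean was 1.22, 1.11, 0.80 and 0.21 in MitolΔ/Δ replicates 1 to 4. Gata1 ran in the other order, being highest in replicates 3 and 4. Without these libraries 35 members rose and the median was 1.20 (8.57% of all tested genes rose). These libraries also had the lowest module medians (0.80 and 0.21), so leaving them out raises the median whatever their red-cell transcripts do. Gata1 in the kept replicates 1 and 2 (114 and 131 normalised counts) still lay above the controls (6.29 to 31.9). The part of red-cell transcripts in the differences was not tested.

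Relative to the other 3 controls, control replicate 3 held 2.73 times as much Bub1, 2.23 times as much Cenpf and 2.15 times as much Cenpe, and 0.555 times as much Cenps. The median of this ratio was 1.29 over the members, 1.75 over 6 proliferation markers and 0.988 over 12 replication licensing genes. MitolΔ/Δ replicate 4 relative to the other 3 MitolΔ/Δ libraries had medians of 0.627, 0.55 and 0.557 for these lists. It was lowest for Spc24 (0.294) and Cenpi (0.384) and near 1 for Cenpa (0.976) and Cenpt.

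**Figure D4:**
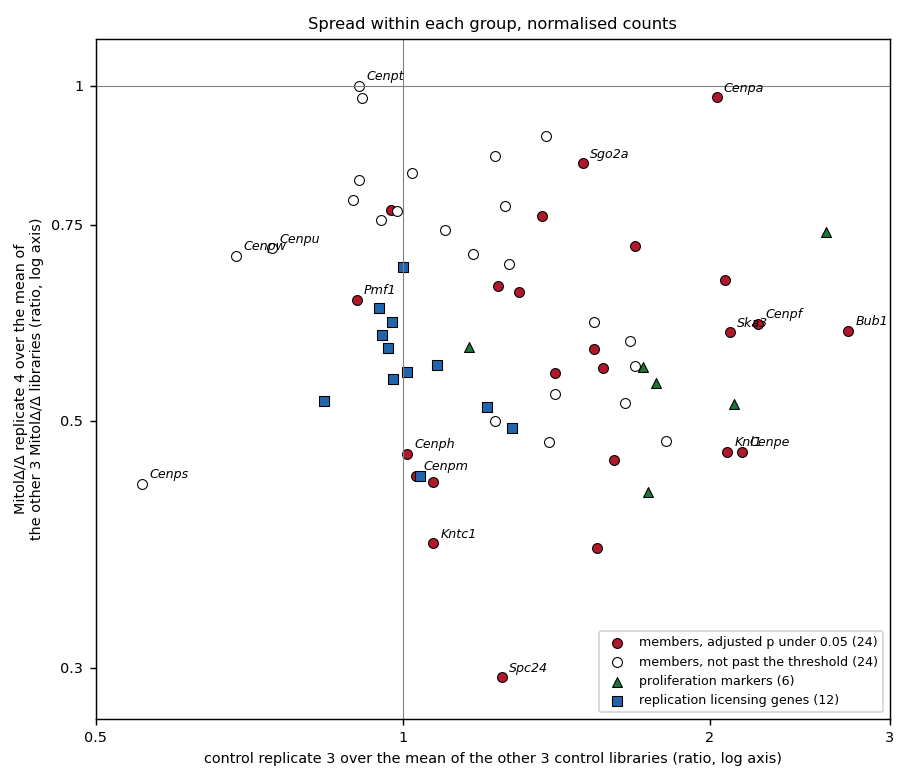
Ratio of control replicate 3 to the mean of the other 3 controls (horizontal log axis) and of MitolΔ/Δ replicate 4 to the mean of the other 3 MitolΔ/Δ libraries (vertical log axis) for the 48 genes, 6 proliferation markers (triangles) and 12 replication licensing genes (squares). Bub1 lies farthest right at 2.73 and Spc24 lowest at 0.294, and the licensing genes gather near 1 on the horizontal axis.

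Levels between genes were compared per kilobase of the canonical GENCODE transcript, as normalised counts. In control HSCs Cenpa was highest at 594 per kilobase, followed by Cenpx at 379 and Pmf1 at 328, and Cenpw was lowest at 4.20. In MitolΔ/Δ HSCs the same quantities were 1010, 485, 546 and 8.26. The order depends on the length used, which was chosen after values over all annotated exons had been seen. Over all annotated exons the control level was 210 for Cenpx, 185 for Cenpb, 65.2 for Cenpa and 42.9 for Pmf1. Levels of Cenpa, Pmf1 and Zwint are thus known only within a wide range, and fold changes do not depend on length. Cenpj had no position under its symbol.

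Related genes outside the rule moved in the same direction where they passed. Of 24 other kinetochore genes, 9 rose and 0 fell, with a median log2 fold change of 0.50, led by the kinases Plk1 (1.74, adjusted p = 0.0205) and Aurkb (1.70, adjusted p = 0.0173) and the kinesin Kif2c (1.65, adjusted p = 0.0201). Aurkb, the catalytic partner of Incenp, had 691, 670, 463 and 226 normalised counts against 87.0, 107, 198 and 222, with groups just apart. Hjurp, the chaperone that deposits CENP-A, had 4405, 3782, 3917 and 3102 against 2347, 2426, 3377 and 2913 (0.44 ± 0.13, adjusted p = 0.0579). Of 6 proliferation markers 5 rose, among them Mki67 (1.08, adjusted p = 0.0197) and Top2a (1.24, adjusted p = 0.0237), and of 12 licensing genes, which load the replicative helicase before S phase, 5 rose with a median of 0.78, close to the median of the module.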

How the data were processed

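RNA-seq was done on 4 MitolΔ/Δ and 4 control libraries of 100 HSCs each (CD150+ CD48- EPCR+ Lineage-), read as single ends of 75 bp. The paper's definition of long-term HSCs also requires c-Kit. The authors aligned reads with STAR to mm39, handled alignments with SAMtools and counted with Subread, and deposited raw counts per gene. The annotation and strand setting are not given in the sources used here. Each of the 23094 rows holds at least 11 counts. The 1029 rows without a symbol (0.335% to 0.467% of counts) were left out. The members and lists were chosen with earlier results of these data known.

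Counts were tested with the quasi-likelihood test of edgeR 4.0.16 (R 4.3.3, TMM, default expression filter, condition as the sole term) with Benjamini-Hochberg adjustment over all genes tested and a threshold of 0.05. Normalised counts are counts divided by DESeq2 1.42.0 size factors. Errors of log2 fold changes are SE and intervals are 95%. Ratios used a pseudocount of 0.5 and 2-sided exact permutation tests. Values in every library were given for the 12 largest called differences, the checkpoint and passenger genes and the 6 members nearest 0, and Cenpa was added. Promoter stretches before the start followed a rule on fold change and position, and those after it were chosen once motif positions were seen. Some marker genes and promoter stretches are not reported here. Positions are from GENCODE vM39 on GRCm39 (47 of 48 members). Alternatives were other scalings and filters, DESeq2, limma-voom (limma 3.58.1), a replicate block, other thresholds, each library left out and, chosen after seeing the data, leaving out MitolΔ/Δ libraries 3 and 4 and another exon length.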

Additional observations from a re-analysis of the deposited data

Results flagged for a closer look

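In 8 of 96 groups of 4 libraries (48 members in 2 groups), 1 library stood apart from the other 3 beyond the 95% critical value of Dixon's ratio of gap to range. About 1 in 20 independent normal groups would pass that value. The 96 groups come from the same 8 libraries and are not independent, so the count cannot be read against that rate. The share over all genes was not computed. Control replicate 3 was the high library for Bub1 (212 normalised counts, next 84.4), Ska3 (119, next 59.3), Mad2l1 (239, next 176) and Cenpa (1407, next 725). Control replicate 1 was the high library for Pmf1 (426, next 348), Cenpx (458, next 319) and Cenpb (1188, next 839). MitolΔ/Δ replicate 1 was the high library for Cenpq (112, next 66.8). Without control replicate 3, 19 members rose (2.48% of all tested genes did) and the median log2 fold change was 0.95.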

How the results depend on the processing

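Across other scalings, filters, DESeq2, limma-voom and the replicate block, 19 to 29 members rose (3.47% to 8.19% of all tested genes did), the median log2 fold change of members was 0.77 to 0.87, and 0 members fell under any setting. The count of higher members was 2 at an adjusted p under 0.01 (0.493% of all tested genes), 30 under 0.1 (8.48%), 35 without MitolΔ/Δ libraries 3 and 4 (8.57%), and 5 to 34 with each library left out (0.995% to 8.77%, median log2 fold change 0.74 to 1.03). Over all genes, 1386 were called. The count was 2315 with DESeq2, 2422 without MitolΔ/Δ libraries 3 and 4, 166 at 0.01, 2585 at 0.1 and 359 to 2501 with each library left out. Of 768 values of single members under an alternative, 641 stayed on their side of the threshold, 95 lost the call, 30 gained it and 2 turned sign, both Zwint (-0.13 to 0.01 with each library left out, above 0 without MitolΔ/Δ replicate 4, and 0.04 without MitolΔ/Δ libraries 3 and 4). Deviations of same-numbered libraries correlated weakly (r = 0.08, -0.07, 0.053 and 0.067). The best-matching control bore the same number for MitolΔ/Δ replicates 1 and 3 and another number for 2 and 4. With 4 libraries a group, this cannot decide whether the numbers mark pairs. With the replicate block 24 members rose (1 lost, 1 gained), and the Bub1b to Bub3 difference was 1.02 (exact permutation test, p = 0.125, the smallest possible). With each library left out that difference was 0.87 to 1.12 (exact permutation test, p = 0.0571, the smallest for 3 against 4). Control levels per kilobase over all annotated exons in place of the canonical transcript were 65.2 for Cenpa, 138 for Cenpt, 210 for Cenpx, 42.9 for Pmf1 and 32.4 for Zwint, against 594, 240, 379, 328 and 267. The cause of these shifts was not tested beyond the loss of libraries or the changed length itself. At 100 cells per library, the lowest members (Cenpw, Ska1) rest on as few as 14 counts in a library.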
